A study of Homo sapiens with 12 samples.

Results

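The response of MCF10A cells to YAP5SA was compared between cells that overexpressed JUN and cells that carried an empty vector, and all 12 of the 12 libraries of the series entered this comparison. MCF10A is a non-tumorigenic human mammary epithelial cell line. The cells carried a doxycycline-inducible allele of YAP5SA, a mutant of the transcriptional coactivator YAP that escapes inhibition by the Hippo kinases, and had been infected with a lentivirus for JUN or with the vector alone. YAP5SA was induced with 100 ng/ml of doxycycline (Dox), and ethanol (EtOH) served as the solvent control. This made 4 groups of 3 libraries, JUN EtOH and JUN Dox beside vector EtOH and vector Dox. The libraries of a group were biological replicates of 1 cell line according to the methods, and the labels give no clone. All groups carried both the inducible allele and a second vector, so an effect of Dox itself cannot be told apart from that of YAP5SA. The methods give 16 h of doxycycline before analysis for these cells, without naming the RNA-seq samples.

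YAP does not bind DNA itself. It is recruited to enhancers and promoters mainly by the TEAD transcription factors, which recognise the letters GGAATG or their reverse complement, and it drives genes of the matrix, the cytoskeleton and growth factor signalling. JUN is a subunit of AP-1, a dimer of basic leucine zipper proteins that recognises the palindrome TGANTCA, and AP-1 and TEAD sites often lie in the same enhancers of epithelial cells. The question of the design was whether JUN changes the transcriptional answer to YAP5SA.

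Libraries held 18594867 to 28993487 counts. All 7 markers of basal mammary epithelium had a mean of at least 1 CPM (reads scaled to library size with TMM factors) in every group. The summed level of the basal markers was 7452 to 7867 CPM in vector EtOH, 3822 to 4996 in vector Dox, 5799 to 7393 in JUN EtOH and 3527 to 5619 in JUN Dox libraries. The 5 luminal markers summed to 1266 to 1451 CPM in vector EtOH, 1497 to 1517 in vector Dox, 694 to 914 in JUN EtOH and 496 to 864 in JUN Dox libraries. Of 3 immune markers, 1 had a mean of at least 1 CPM in each group and CD3E of T cells was at 0 in all libraries, while their sum was 24.3 to 31.04 CPM in vector EtOH, 4.34 to 5.95 in vector Dox, 9.20 to 11.8 in JUN EtOH and 1.45 to 3.52 in JUN Dox libraries. The part of these differences in the results below was not tested. The libraries came from 1 cell line, and in bulk RNA fewer cells expressing a marker cannot be told apart from less of its RNA per cell.

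Counts for JUN sum the endogenous gene and any vector transcript that matches it. JUN had 55.02, 35.5 and 52.2 CPM in the vector EtOH group and 188, 186 and 194 with Dox, while JUN cells had 1399, 1374 and 1064 with EtOH and 1325, 1274 and 1146 with Dox. The JUN libraries lay above all vector libraries, as labelled. YAP1 may sum endogenous and mutant transcript, but whether reads of the YAP5SA cassette map to it cannot be told from the counts. It had 191, 171 and 176 CPM in vector EtOH libraries and 216, 273 and 221 CPM in those with Dox, and in JUN cells 249, 243 and 211 CPM without and 365, 267 and 208 CPM with Dox. Its induction was not called in vector cells (0.40 on the log2 scale, edgeR adjusted p 0.0819) or in JUN cells (0.26, edgeR adjusted p 0.308), and its interaction was -0.14 (95% interval -0.64 to 0.35). CCN1, a matricellular protein and one of the best known YAP targets, was induced in both backgrounds, from 68.5 ± 11.3 to 1895 ± 88.6 CPM in vector cells and from 61.5 ± 2.72 to 1072 ± 4.41 CPM in JUN cells (SD, n = 3).

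The interaction of a gene is its log2 induction (Dox over EtOH) in JUN cells less its log2 induction in vector cells. The edgeR quasi-likelihood test called 165 of 14775 genes at an adjusted p under 0.05, which is 1.12% of the genes tested, with 43 above 0 (0.291%) and 122 below 0 (0.826%). The YAP5SA induction itself was called for 4443 genes (30.1%) in vector cells and for 3168 (21.4%) in JUN cells. For most responding genes no difference between the backgrounds was therefore called. The number of interaction calls depended on single libraries and fell to 97 without vector EtOH replicate 3, 99 without JUN EtOH replicate 2 and 107 without JUN EtOH replicate 1. Of the 165 genes, 83 were called in each of the 12 fits that left out 1 library.

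Each called gene was put in a class by whether its induction was also called in either background. A response was blunted where it was called in both with the same sign and was smaller in JUN cells, and enhanced where it was larger there. It was lost where it was called in vector cells only, gained where it was called in JUN cells only, and reversed where both were called with opposite signs. There were 74 blunted responses (53 rises and 21 falls), 48 lost (39 rises and 9 falls), 10 reversed, 6 enhanced and 27 gained (8 rises and 19 falls). In the scatter of both inductions, 122 genes with a smaller response in JUN cells lay between the diagonal and the horizontal axis or just across that axis. The class rules largely fix this place.

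Class sizes moved with single libraries. Blunted responses numbered 45 without vector EtOH replicate 3 and 47 without JUN EtOH replicate 1 or 2. Lost responses numbered 29 or 30 without any 1 of the 3 vector EtOH libraries, 81 without vector Dox replicate 1 and 73 without JUN Dox replicate 1. Reversed responses numbered 5 without JUN EtOH replicate 1, JUN EtOH replicate 2 or JUN Dox replicate 3, 6 without vector EtOH replicate 3 or vector Dox replicate 3, and 20 without vector Dox replicate 1. Gained responses numbered 12 without JUN EtOH replicate 2 and 15 without vector EtOH replicate 3. Enhanced responses numbered 1 to 3 without any 1 vector EtOH or JUN EtOH library, vector Dox replicate 2 or 3, or JUN Dox replicate 3. Calls above 0 numbered 21 to 28 without vector EtOH replicate 1 or 3, vector Dox replicate 3 or JUN EtOH replicate 2, and 76 without JUN Dox replicate 1. Calls below 0 numbered 71 to 79 without vector EtOH replicate 2 or 3 or JUN EtOH replicate 1 or 2, and 184 without vector Dox replicate 1.

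**Figure D1:**
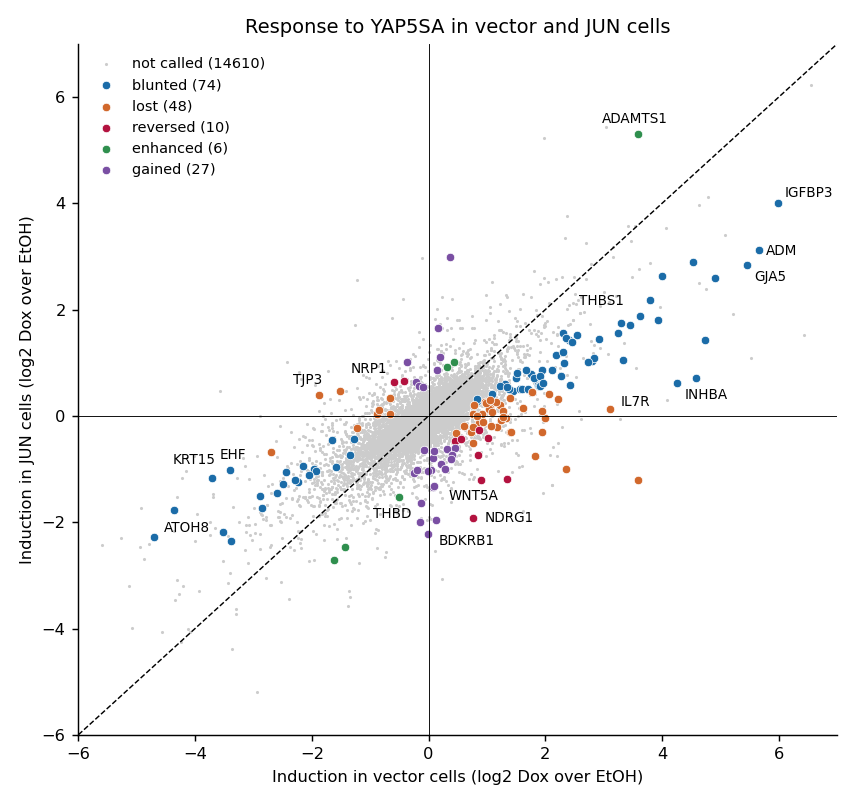
Log2 induction (Dox over EtOH) in vector cells (x axis) and in JUN cells (y axis) for the 14775 genes tested. Coloured points are the 165 genes with an interaction call, by class, and the dashed line marks equal responses. The 74 blunted and 48 lost responses lie on the side of the smaller response in JUN cells, a place that the class rules largely fix.

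Promoters of 3 blunted genes are shown first, with the letters that TEAD factors and AP-1 recognise. They are 300 bases from RefSeq on GRCh38.p14 (250 before to 50 after the start of the gene, 5′ to 3′ on the strand of the gene), with TEAD letters (GGAATG or CATTCC) and AP-1 letters (TGACTCA or TGAGTCA) in capitals. NUAK2 and THBS1 were chosen for TEAD letters and F3 for AP-1 letters. They came from called genes without an overlapping partner of more than 10% of their count.
NUAK2 (chr1:205321696-205321995, - strand): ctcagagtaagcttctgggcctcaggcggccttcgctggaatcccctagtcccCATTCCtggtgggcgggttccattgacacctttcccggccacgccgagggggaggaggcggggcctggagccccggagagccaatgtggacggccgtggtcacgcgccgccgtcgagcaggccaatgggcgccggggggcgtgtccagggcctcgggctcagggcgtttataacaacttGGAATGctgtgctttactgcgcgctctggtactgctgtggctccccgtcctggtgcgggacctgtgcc
THBS1 (chr15:39580829-39581128, + strand): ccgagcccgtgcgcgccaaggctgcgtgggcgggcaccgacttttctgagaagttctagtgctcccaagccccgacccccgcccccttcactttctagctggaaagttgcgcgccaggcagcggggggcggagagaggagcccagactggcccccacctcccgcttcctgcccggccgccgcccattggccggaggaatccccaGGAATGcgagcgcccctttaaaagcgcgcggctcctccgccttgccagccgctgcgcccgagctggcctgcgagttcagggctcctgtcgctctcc
F3 (chr1:94541710-94542009, - strand): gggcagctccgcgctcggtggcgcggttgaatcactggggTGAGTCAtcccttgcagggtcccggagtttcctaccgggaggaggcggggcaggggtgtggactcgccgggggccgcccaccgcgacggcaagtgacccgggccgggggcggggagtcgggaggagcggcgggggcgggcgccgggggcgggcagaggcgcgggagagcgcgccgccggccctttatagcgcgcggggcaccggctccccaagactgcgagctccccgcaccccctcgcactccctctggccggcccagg
NUAK2 held a TEAD match on either strand, THBS1 held 1 and F3 held 1 AP-1 match. Of the 52 blunted genes with a promoter in the table, 10 (19.2%) held TEAD letters, against 10.8% of the 11490 tested genes with a promoter and 14.0% of all 27305 promoters. Over all called genes with a promoter, 13 of 121 (10.7%) held TEAD letters, a share near that of tested genes. AP-1 letters stood in 5 of the 52 (9.62%) and in 8 of the 121 (6.61%), against 3.42% of tested genes and 4.92% of all promoters. Among the 35 lost genes with a promoter, 3 held TEAD letters and 1 held AP-1 letters, and of 22 gained genes none held TEAD letters and 2 held AP-1 letters. Both motifs were searched on both strands, and how often they stood together in a promoter was not counted. A match describes the letters and is neither a site nor a cause.

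NUAK2, a kinase of the AMPK family that feeds back on the Hippo pathway and the actin cytoskeleton, lies at chr1:205271191-205290873 (this and the gene positions below are on GRCh37, the build of the counts). It had 12.97, 10.8 and 12.3 CPM in the vector EtOH group and 56.8, 71.2 and 65.6 with Dox, while JUN cells had 9.07, 10.5 and 9.43 with EtOH and 13.5, 16.8 and 13.04 with Dox. Without induction the backgrounds lay close together, and with induction all JUN libraries lay below all vector libraries. On induction it rose by 2.42 in the vector background and by 0.58 with JUN, an interaction of -1.84 (SE 0.18, edgeR adjusted p 7.1e-05). THBS1 (chr15:39873280-39891667), the secreted matrix glycoprotein thrombospondin 1, had 130.1, 87.3 and 107 CPM in vector EtOH libraries and 1117, 1467 and 1437 CPM in those with Dox, and in JUN cells 25.9, 26.2 and 29.7 CPM without and 92.8, 99.1 and 110.04 CPM with Dox. Induced JUN cells thus reached only the level of vector cells without YAP5SA. The interaction of THBS1 was -1.75 (SE 0.21, edgeR adjusted p 0.000401).

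F3 (chr1:94994729-95007315), or tissue factor, the cell surface starter of blood clotting, behaved otherwise on the linear scale. It had 109.9, 70.9 and 81.7 CPM in the vector EtOH group and 1051, 789 and 743 with Dox, while JUN cells had 535, 397 and 366 with EtOH and 1703, 1400.05 and 1247 with Dox. Its log2 induction fell from 3.30 in vector cells to 1.74 in JUN cells, an interaction of -1.55 (SE 0.27, edgeR adjusted p 0.00949). In CPM the gain was 1018 in JUN and 774 in vector cells, a difference of 244 with an SE of 173, and the level before induction was higher in JUN cells. CCDC80, a secreted matrix protein, had 42.4 ± 3.07 and 320.4 ± 5.36 CPM in vector cells and 208 ± 16.1 and 565 ± 52.7 CPM in JUN cells (SD, n = 3). Its interaction was -1.48 on the log2 scale (edgeR adjusted p 7.12e-05), while the gain in CPM was 278 in vector and 357 in JUN cells, a difference of 78.6 with an SE of 32.03. In all, 13 of the 165 called genes had the opposite sign on the CPM scale, and for 4 of the 13, F3 among them, the difference in CPM lay within 2 SE of 0.

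In the list of 26 conserved YAP and TEAD targets, most genes were called higher on induction in each background. In vector cells 21 of them were called higher on induction (15.6% of all genes tested) and in JUN cells 18 (11.2%). None was called lower. Median inductions were 1.58 (vector) and 1.18 (JUN), against 0.0072 and 0.0032 over all genes. The interaction was called below 0 for 6 and above 0 for none, where 0.826% and 0.291% of all genes were called so. Its median was -0.44 against 0.012 over all genes and stayed below 0 under every other setting tried. DESeq2 called 11 below 0 and none above, out of 358 calls over all genes. The 6 by edgeR were THBS1, NUAK2, F3, CCDC80, FOXF2 and IGFBP3. FOXF2, a forkhead transcription factor, had inductions of 1.32 and 0.59 (edgeR adjusted p 0.00949 for the difference). IGFBP3, which binds insulin-like growth factors in the medium, had inductions of 5.98 and 4.02 (edgeR adjusted p 0.0167), a call that was lost without vector EtOH replicate 2, vector EtOH replicate 3 or JUN EtOH replicate 1 (adjusted p up to 0.068).

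Other textbook YAP targets had no interaction call by edgeR. CCN2, the matricellular relative of CCN1, rose by 3.47 in vector cells and by 3.29 in JUN cells on the log2 scale, a difference of -0.18 (95% interval -0.64 to 0.28). The receptor tyrosine kinase AXL rose by 1.66 and 1.75, a difference of 0.09 (95% interval -0.40 to 0.57). FJX1 and AJUBA, a LIM protein that restrains the Hippo kinases, had differences of -0.08 (95% interval -0.37 to 0.21) and -0.19 (95% interval -0.49 to 0.10). CCN1 itself had a difference of -0.66 (95% interval -1.03 to -0.30) and did not pass the test (edgeR adjusted p 0.087), but it was called by DESeq2 (adjusted p 0.00237) and by edgeR with a term for GC deviation (adjusted p 0.0418). LATS2 and ANKRD2 were likewise called by DESeq2 (adjusted p 0.0341 and 0.00116) and not by edgeR (adjusted p 0.117 and 0.0726). CCN2, AXL, FJX1 and AJUBA were called in no alternative tried. CCN2 had a level in JUN cells below that in vector cells in both states, 7.43 ± 1.38 against 16.8 ± 3.66 CPM without and 72.4 ± 2.58 against 187 ± 18.03 CPM with induction (SD, n = 3), with the inductions given above. ANKRD1, a nuclear ankyrin protein of stressed muscle and epithelium, was at or under 3 counts in every JUN EtOH library and gets no fold there. It had 10.9, 9.37 and 11.4 CPM in vector Dox and 0.251, 0.216 and 0.249 CPM in JUN Dox libraries, and its interaction was not called (edgeR adjusted p 0.13).

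**Figure D2:**
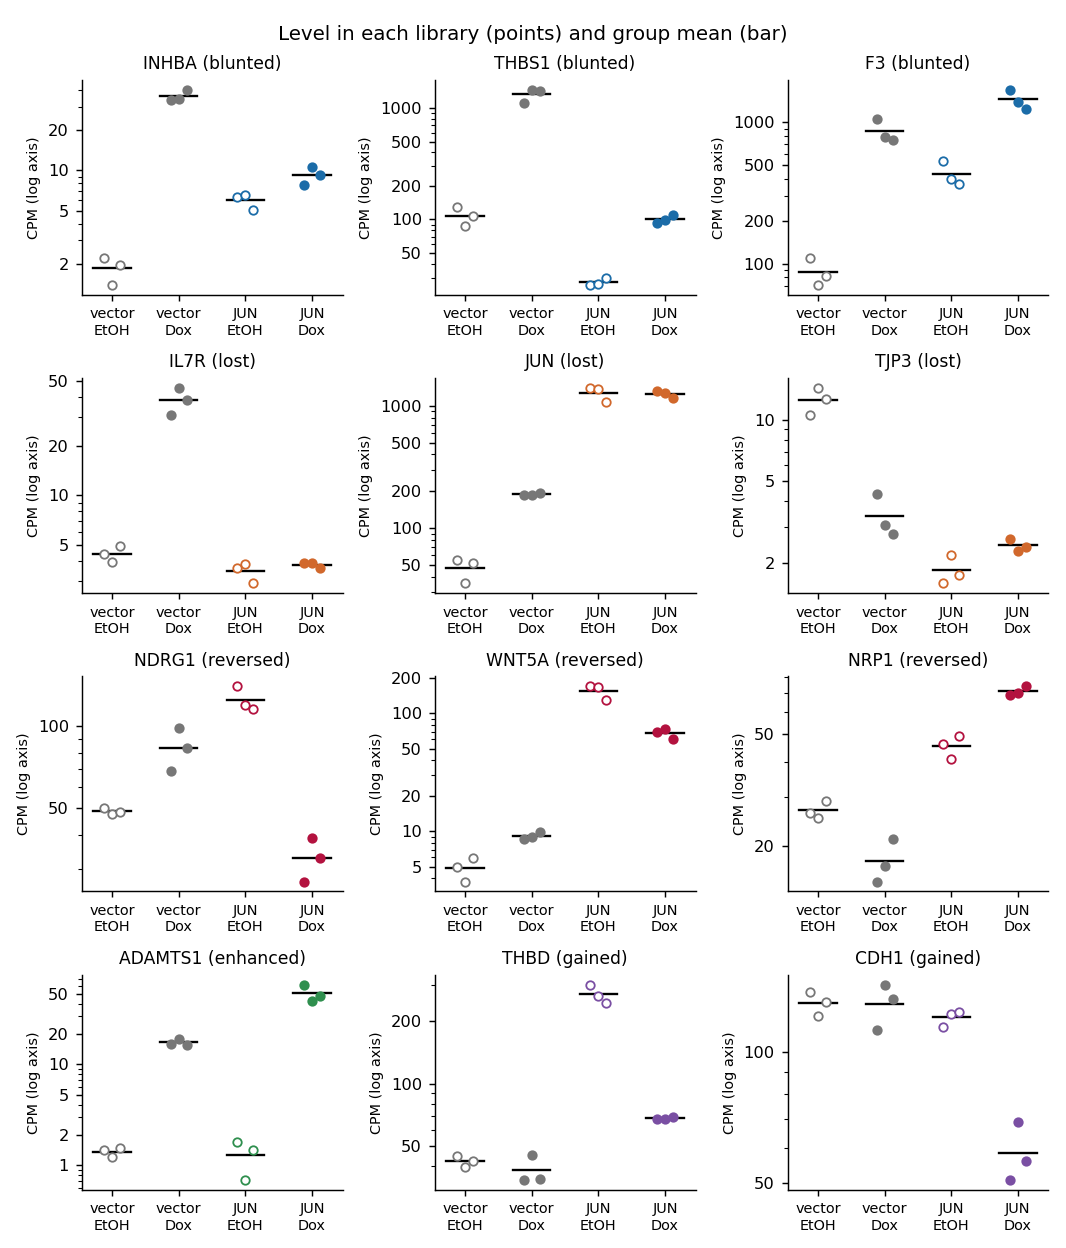
CPM on a log axis for 12 genes in the 12 libraries (points, open for EtOH and filled for Dox, grey for vector and coloured for JUN) with group means as bars. INHBA, THBS1 and IL7R reach high levels in vector Dox libraries only, NDRG1 and WNT5A go up in vector cells and down in JUN cells, and THBD and CDH1 go down in JUN cells only.

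Among genes with a group mean of at least 5 CPM, the blunted rises with the largest interactions were INHBA-AS1, INHBA, NLRP3 and GJA5. INHBA, which encodes the subunit of activin A, had 2.21, 1.40 and 1.97 CPM in vector EtOH libraries and 33.7, 34.2 and 40.3 CPM in those with Dox, and in JUN cells 6.29, 6.62 and 5.07 CPM without and 7.73, 10.6 and 9.24 CPM with Dox. The 3 induced JUN libraries lay far below the induced vector libraries, although uninduced JUN libraries lay above uninduced vector libraries. Its induction fell from 4.26 to 0.62, an interaction of -3.64 (SE 0.24, edgeR adjusted p 3.67e-06). The antisense gene INHBA-AS1 overlaps it and had an interaction of -3.86, and since no use of strand is stated for the counting, reads of this pair cannot be told apart. NLRP3, a sensor of the inflammasome, was at or under 3 counts in every vector EtOH library and gets no fold there. It had 1.92, 2.70 and 1.65 CPM in vector Dox libraries and, with JUN, 3.61, 2.36 and 2.44 CPM without and 6.72, 7.91 and 8.10 CPM with Dox, so the induced JUN libraries were the highest. The fold fitted from the floor still sets its class and rank, while its gain in CPM was 2.02 in vector and 4.77 in JUN cells. ADM, a vasodilator peptide of the low-oxygen response, had 6.24, 6.79 and 7.63 CPM in the vector EtOH group and 444, 272 and 327 with Dox, while JUN cells had 28.5, 23.5 and 23.98 with EtOH and 232, 194 and 239.7 with Dox. All induced libraries of ADM lay above all uninduced ones, and it rose by 5.66 in vector and by 3.13 in JUN cells (interaction -2.53, SE 0.23, edgeR adjusted p 3.95e-05).

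A junction gene and a guidance gene were among the blunted rises. GJA5, the gap junction protein connexin 40, had 0.722, 0.449 and 0.494 CPM in vector EtOH libraries and 23.7, 26.7 and 24.5 CPM in those with Dox, and in JUN cells 0.660, 0.632 and 0.610 CPM without and 4.57, 5.23 and 3.98 CPM with Dox, an interaction of -2.61 (SE 0.31, edgeR adjusted p 0.000337). Uninduced levels did not separate the backgrounds. SEMA7A, a membrane-anchored semaphorin, showed another shape: induced vector and JUN libraries overlapped at 34.05 ± 4.46 and 35.8 ± 2.41 CPM, while uninduced libraries were at 3.59 ± 0.341 and 12.1 ± 2.95 CPM (SD, n = 3). Its interaction of -1.69 (edgeR adjusted p 0.000946) came with end levels that overlapped. Of 28 semaphorin, ephrin and receptor genes, 3 were called below 0 (SEMA7A, EPHA2 and EFNA1) and 1 above 0 (NRP1). Over all genes tested these shares were 0.826% and 0.291%. EPHA2 was called in only 3 of the 12 fits that left out 1 library.

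Cell cycle entry and the cytoskeleton each held blunted members. CCND1, cyclin D1, had 269, 208 and 249 CPM in the vector EtOH group and 583, 731 and 679 with Dox, while JUN cells had 229.9, 204 and 233 with EtOH and 281, 321 and 316 with Dox, and CCND2 rose by 2.11 and 0.86 on the log2 scale. Their interactions were -0.99 (edgeR adjusted p 0.00879) and -1.25 (edgeR adjusted p 0.00967). These were the 2 calls among 10 cyclin D and CDK inhibitor genes, where 1.12% of all genes tested were called. TPM1, the actin-binding tropomyosin 1, had 39.6, 41.02 and 36.8 CPM in vector EtOH libraries and 149, 116 and 119 CPM in those with Dox, and in JUN cells 34.1, 32.7 and 33.5 CPM without and 49.4, 43.3 and 49.5 CPM with Dox (interaction -1.20, edgeR adjusted p 0.000586). It was the 1 call among 26 actin cytoskeleton and serum response factor genes, a share not far from the 1.12% of all genes.

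Over all 53 blunted rises the median kept 44.04% of the log2 induction of vector cells. JUN without induction was called higher for 32 of the 53 and lower for 8, where 20.1% and 18.9% of all genes were called so. With induction, JUN cells were called lower for 32 and higher for 9 (17.2% and 18.4% of all genes). These comparisons use the libraries that define the interaction and are no second line of evidence. The median profile of these genes accordingly started 0.66 log2 units above vector EtOH in JUN EtOH libraries and ended at 1.83 in JUN Dox, against 2.31 in vector Dox libraries.

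**Figure D3:**
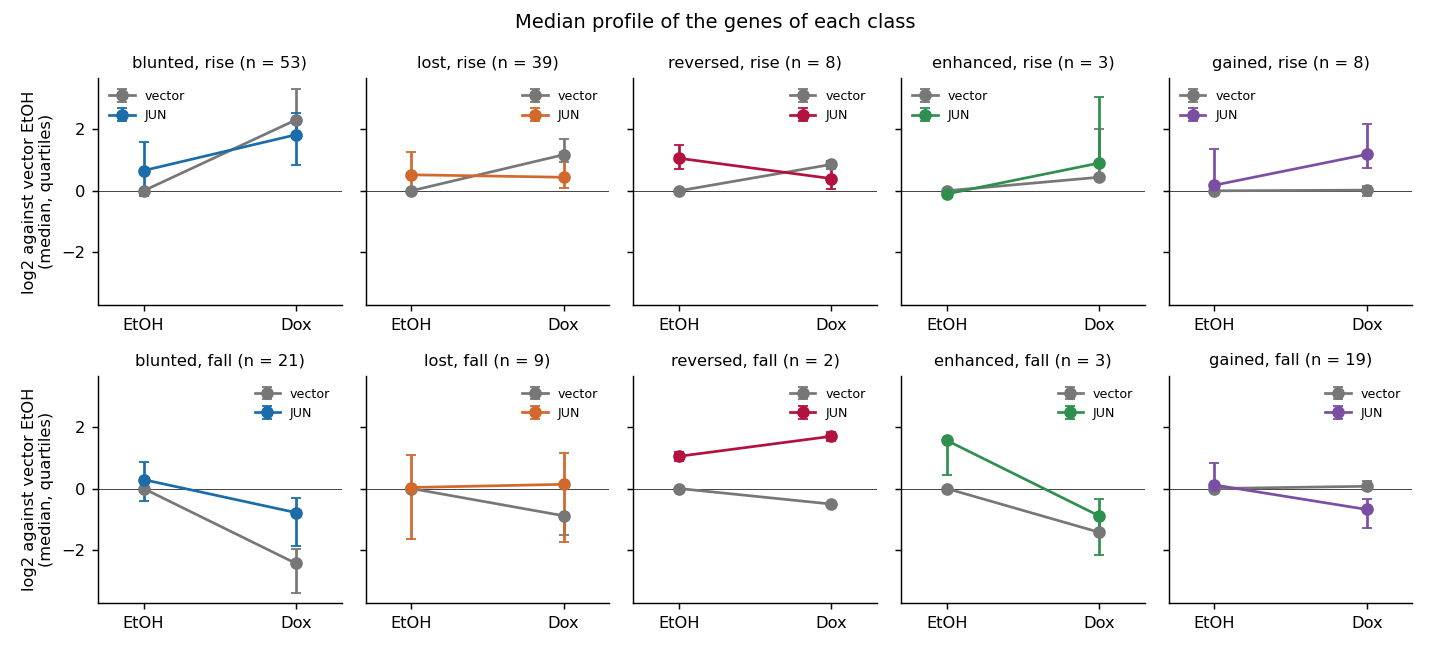
Median log2 level of the genes of each class relative to vector EtOH (y axis) in EtOH and Dox libraries (x axis), for vector cells in grey and JUN cells in colour, with quartiles as bars. Blunted rises (n = 53) start at 0.66 in JUN EtOH and end at 1.83 in JUN Dox against 2.31 in vector Dox. Gained falls (n = 19) stay near 0 in vector cells and end at -0.68 in JUN Dox.

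By the same rule the blunted falls with the largest interactions were ATOH8, KRT15, PRR15L and EHF. EHF, an ETS factor of epithelial differentiation, had 22.4, 26.5 and 20.2 CPM in the vector EtOH group and 1.96, 2.79 and 1.82 with Dox, while JUN cells had 41.7, 44.5 and 40.2 with EtOH and 17.6, 24.3 and 20.4 with Dox. YAP5SA lowered EHF in both backgrounds, and induced JUN libraries stayed well above induced vector libraries (interaction 2.38, SE 0.23, edgeR adjusted p 6.13e-05). The basic helix-loop-helix factor ATOH8 fell by 4.36 on the log2 scale in vector cells, from 6.01 ± 0.147 to 0.288 ± 0.133 CPM, and from 16.8 ± 1.02 to 4.87 ± 0.704 CPM in JUN cells (SD, n = 3; interaction 2.58, edgeR adjusted p 0.000337). ATOH8 started higher in JUN cells, and its drop counted in CPM was larger there, while that of EHF was close in the 2 backgrounds. PRR15L went from 18.3 ± 2.20 to 0.699 ± 0.292 CPM in vector cells and from 1.98 ± 0.819 to 0.393 ± 0.159 CPM in JUN cells (SD, n = 3; interaction 2.43, edgeR adjusted p 0.0452), and was called in 2 of the 12 fits that left out 1 library.

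KRT15, a keratin of basal and progenitor cells, had 32.9, 56.7 and 35.04 CPM in the vector EtOH group and 2.88, 3.92 and 2.77 with Dox, while JUN cells had 5.06, 9.69 and 8.35 with EtOH and 3.16, 3.03 and 3.98 with Dox. JUN lowered it before induction, and all induced libraries ended together (interaction 2.53, SE 0.37, edgeR adjusted p 0.002). Of 13 keratins it was the 1 called, where 1.12% of all genes were called. The list had a median induction of -0.67 in vector cells and -0.36 in JUN cells. The Notch target and repressor HES1 had inductions of -2.85 and -1.74 (edgeR adjusted p 0.0141 for the interaction), and CYP26B1, an enzyme that degrades retinoic acid, had -1.93 and -1.04 (edgeR adjusted p 0.00587). The median of the 21 blunted falls kept 52.1% of the log2 change. On the CPM scale only 14 of the 21 kept the sign of their interaction, as did 48 of the 53 blunted rises. In induced cells JUN was called higher for 17 of the 21 and lower for 1 (18.4% and 17.2% of all genes). This comparison too shares its libraries with the interaction and adds no second line of evidence.

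Lost responses included members of the cytokine, low-oxygen, WNT and junction lists, most of whose genes had no interaction call. IL7R, the receptor chain for interleukin 7, had 4.37, 3.94 and 4.89 CPM in vector EtOH libraries and 30.9, 45.2 and 38.00 CPM in those with Dox, and in JUN cells 3.61, 3.83 and 2.91 CPM without and 3.86, 3.89 and 3.59 CPM with Dox. Only the vector Dox libraries were high, and the induction went from 3.11 to 0.13 (interaction -2.98, SE 0.23, edgeR adjusted p 1.13e-05). EGLN3, a prolyl hydroxylase that marks the low-oxygen factor for decay, had 3.08, 2.59 and 2.83 CPM in the vector EtOH group and 13.6, 10.6 and 8.67 with Dox, while JUN cells had 10.4, 6.78 and 8.82 with EtOH and 6.12, 8.47 and 6.50 with Dox (interaction -2.25, edgeR adjusted p 0.000607). The span of EGLN3 overlaps SPTSSA, so its value is uncertain. ROR1, a receptor for WNT5A, went from 10.6 ± 1.22 to 28.01 ± 4.62 CPM in vector cells and from 14.9 ± 0.306 to 12.05 ± 2.06 CPM in JUN cells (SD, n = 3; interaction -1.70, edgeR adjusted p 0.000488).

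CGN, the tight junction adaptor cingulin, had 2.24, 1.80 and 2.92 CPM in vector EtOH libraries and 8.02, 11.8 and 12.7 CPM in those with Dox, and in JUN cells 1.98, 1.60 and 2.25 CPM without and 2.61, 2.77 and 1.92 CPM with Dox (interaction -1.90, edgeR adjusted p 0.0103). The rise of PHLDA1, a feedback gene of growth factor signalling, was lost in another way. It had 116, 91.7 and 107 CPM in the vector EtOH group and 226, 256 and 229 with Dox, while JUN cells had 333, 274 and 249 with EtOH and 251, 255 and 232 with Dox, so JUN alone already reached the induced level (interaction -1.39, edgeR adjusted p 0.000488). TTC9, a tetratricopeptide repeat protein, went from 1.89 ± 0.258 to 6.70 ± 1.43 CPM in vector cells and from 1.53 ± 0.163 to 0.926 ± 0.449 CPM in JUN cells (SD, n = 3; interaction -2.58, edgeR adjusted p 0.00577). JUN itself belongs here by its counts. The change on induction was 1.99 with the empty vector and -0.03 with the JUN vector (interaction -2.03, edgeR adjusted p 0.000133), where the vector transcript may make up most of the count and the endogenous gene cannot be told apart.

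Across the 39 lost rises median inductions were 1.18 (vector) and 0.0019 (JUN), and 20 of the 39 had a value above 0 in JUN cells. JUN without induction was called higher for 22 and lower for 4 (20.1% and 18.9% of all genes). With induction JUN was called lower for 24 and higher for 6 (17.2% and 18.4%). As for the blunted rises, these comparisons share their libraries with the interaction and are no second line of evidence. The 9 lost falls held TJP3, a scaffold of tight junctions, with 10.5, 14.4 and 12.7 CPM in vector EtOH libraries and 4.36, 3.06 and 2.77 CPM in those with Dox, and in JUN cells 1.58, 2.19 and 1.74 CPM without and 2.61, 2.29 and 2.38 CPM with Dox (interaction 2.28, edgeR adjusted p 0.000607). TJP3 was already low with JUN before induction, and its span overlaps APBA3, so the value is uncertain. FUT3, a fucosyltransferase of the Lewis blood group antigens, had inductions of -2.69 and -0.68, and CDC42EP4, an effector of the GTPase CDC42, had -1.23 and -0.22 (edgeR adjusted p 0.00595 and 0.00249 for the interactions). GRHL3, a grainyhead factor of the epidermal barrier that overlaps STPG1, had -0.66 and 0.33 (interaction 0.99, edgeR adjusted p 0.00967).

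Reversed responses were few, and 8 of the 10 rose in vector cells and fell in JUN cells. NDRG1, a gene of stress and low oxygen on chromosome 8, had 50.3, 47.8 and 48.6 CPM in the vector EtOH group and 68.7, 98.3 and 83.4 with Dox, while JUN cells had 140.4, 119.8 and 116 with EtOH and 26.9, 38.99 and 32.8 with Dox. JUN and YAP5SA each raised it alone, and the libraries with both lay below every other library (inductions 0.77 and -1.93, interaction -2.70, SE 0.20, edgeR adjusted p 9.6e-06). WNT5A, a ligand of the non-canonical WNT pathway, had 5.02, 3.74 and 5.92 CPM in vector EtOH libraries and 8.55, 8.97 and 9.91 CPM in those with Dox, and in JUN cells 169.7, 166 and 129.96 CPM without and 69.8, 73.2 and 60.01 CPM with Dox. JUN raised WNT5A by 4.98 on the log2 scale before induction, and YAP5SA then lowered it to a level still above that of vector cells (interaction -2.09, SE 0.21, edgeR adjusted p 8.22e-05).

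The microtubule protein MAP2 had inductions of 1.35 and -1.20 (interaction -2.54, edgeR adjusted p 0.0127). TGIF1, a homeobox corepressor of TGF-beta signalling, had 33.9, 31.7 and 31.6 CPM in the vector EtOH group and 56.9, 61.7 and 59.03 with Dox, while JUN cells had 56.7, 55.7 and 52.9 with EtOH and 47.01, 45.5 and 45.2 with Dox. Its small changes were tight between replicates (inductions 0.87 and -0.26, interaction -1.13, edgeR adjusted p 0.000101). CCDC71L and RNF144B, a ubiquitin ligase, had interactions of -1.58 and -1.44, and ICAM1, the leukocyte adhesion molecule, one of -0.99 that was lost without vector EtOH replicate 3 (edgeR adjusted p 0.054). DAAM1, a formin of the WNT and actin pathways, had -0.92 and was called in 5 of the 12 fits that left out 1 library.

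A fall in vector cells turned into a rise for NRP1 and PLAT. NRP1, the coreceptor neuropilin 1 for semaphorins and VEGF, had 26.2, 25.1 and 28.99 CPM in vector EtOH libraries and 14.9, 16.9 and 21.1 CPM in those with Dox, and in JUN cells 46.3, 40.8 and 49.4 CPM without and 69.1, 70.2 and 74.3 CPM with Dox (interaction 1.25, SE 0.17, edgeR adjusted p 0.00128). PLAT, tissue plasminogen activator, had 21.4, 24.4 and 19.97 CPM in the vector EtOH group and 17.5, 17.04 and 14.9 with Dox, while JUN cells had 61.00, 50.99 and 54.1 with EtOH and 94.3, 88.2 and 79.4 with Dox (interaction 1.07, SE 0.16, edgeR adjusted p 0.00238). In both genes the 4 groups did not overlap, with vector Dox lowest and JUN Dox highest.

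Enhanced responses numbered only 6. ADAMTS1, a secreted metalloprotease that cleaves proteoglycans, had 1.41, 1.20 and 1.48 CPM in vector EtOH libraries and 16.05, 17.98 and 15.5 CPM in those with Dox, and in JUN cells 1.72, 0.716 and 1.41 CPM without and 61.96, 42.6 and 47.97 CPM with Dox. Uninduced levels overlapped and induced JUN libraries lay above induced vector libraries (inductions 3.59 and 5.31, interaction 1.72, SE 0.33, edgeR adjusted p 0.017). The call was lost without vector EtOH replicate 1 or 3 (adjusted p up to 0.0746). CA12, a membrane carbonic anhydrase, had an enhanced fall, from 74.2 ± 6.995 to 52.1 ± 8.95 CPM in vector cells and from 242 ± 24.8 to 83.8 ± 3.93 CPM in JUN cells (SD, n = 3; interaction -1.02, edgeR adjusted p 0.00826). The remaining 4 genes (SH3BP5L, NR2F2, RHOV and LYPD3) were each called in 5 or fewer of the 12 fits that left out 1 library.

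Of the 27 gained responses, 19 were falls, called in JUN cells and not in vector cells. THBD, the anticoagulant receptor thrombomodulin, had 45.02, 39.7 and 42.6 CPM in the vector EtOH group and 34.3, 45.4 and 34.9 with Dox, while JUN cells had 302, 266 and 245 with EtOH and 67.9, 67.6 and 69.1 with Dox (interaction -1.84, SE 0.16, edgeR adjusted p 3.74e-05). JUN raised THBD by 2.67 on the log2 scale, and YAP5SA took back most of that rise. CDH1, the epithelial adhesion molecule E-cadherin, had 137, 121 and 130.1 CPM in vector EtOH libraries and 112, 143 and 132 CPM in those with Dox, and in JUN cells 114, 123 and 124 CPM without and 50.8, 69.2 and 56.2 CPM with Dox. Neither JUN nor YAP5SA alone changed CDH1 by a called amount, and the libraries with both lay below all others (interaction -1.03, SE 0.17, edgeR adjusted p 0.00541).

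EFNA1, a ligand of EPHA2, had the same shape, with 33.5, 29.8 and 25.04 CPM in the vector EtOH group and 32.7, 23.5 and 24.4 with Dox, while JUN cells had 25.5, 28.9 and 24.4 with EtOH and 10.1, 7.39 and 7.99 with Dox (interaction -1.50, edgeR adjusted p 0.002). BDKRB1, the bradykinin receptor B1, and TRIB2, a pseudokinase, had inductions of -2.23 and -1.95 in JUN cells and of -0.01 and 0.13 in vector cells (edgeR adjusted p 0.000946 and 0.00031 for the interactions). Of the 19 gained falls, JUN was called higher before induction for 7 and lower for 1 (20.1% and 18.9% of all genes). After induction JUN was called lower for 14 and higher for 2 (17.2% and 18.4%). These comparisons also use libraries that define the interaction and add no further evidence.

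Gained rises were fewer and less steady. INSC, an adaptor of spindle orientation, had 5.29, 4.54 and 6.24 CPM in vector EtOH libraries and 5.15, 3.20 and 4.13 CPM in those with Dox, and in JUN cells 11.05, 14.4 and 14.4 CPM without and 29.6, 26.02 and 25.1 CPM with Dox (interaction 1.38, edgeR adjusted p 0.00967). The cytokine IL6 had 2.70, 1.70 and 1.08 CPM in the vector EtOH group and 3.05, 2.43 and 1.69 with Dox, while JUN cells had 0.528, 0.379 and 0.563 with EtOH and 5.12, 3.50 and 3.27 with Dox (interaction 2.63, SE 0.50, edgeR adjusted p 0.0151). The call was lost without JUN EtOH replicate 2 (adjusted p 0.0628), and IL6 overlaps the span of STEAP1B, so its value is uncertain. In all, 36 called genes had an overlapping partner with more than 10% of their count, and joining called genes with overlapping spans left 158 loci.

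Across functions, interaction calls were spread over many lists. Over all genes tested, 0.826% were called below 0 and 0.291% above. The low-oxygen list had 6 of 30 genes called below 0 and none above (NDRG1, ADM, EGLN3, CA12, PFKFB3 and VLDLR), with medians of 0.14 in vector and -0.31 in JUN cells. NDRG1 is in this count through a reversed response, CA12 through an enhanced fall, ADM through a blunted rise, and EGLN3, PFKFB3 and VLDLR through lost rises. PFKFB3 and VLDLR were called in 6 and 3 of the 12 fits that left out 1 library. Of the same list, VEGFA, CA9 and SLC2A1 had no interaction call. The WNT list had 4 of 27 called below 0 (WNT5A, ROR1, WNT7B and FZD2) and a median interaction of -0.28. WNT7B and FZD2 were each called in 3 of the 12 fits. In vector cells 10 of the 27 were called higher on induction (15.6% of all genes) and in JUN cells 5 (11.2%).

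Among 18 AP-1 and related bZIP factors, 3 were called below 0 (JUN, FOSL2 and MAFK) and 1 above 0. Over all genes 0.826% and 0.291% were called so. The JUN count in JUN cells may be mostly vector transcript. The difference of its gains in CPM (JUN less vector cells) was -173 with an SE of 120. The median interaction of the list was -0.31. FOSL2 and MAFK were called in 3 and 2 of the 12 fits that left out 1 library. The median was lower still, at -0.49, without vector EtOH replicate 1. The cytokine list of 28 genes had a median interaction of -0.42, with LIF and IL7R called below 0 and IL6 above 0. LIF was called in 3 of the 12 fits. JUN without induction was called higher for 19 of these 28 genes (20.1% of all genes). Their median of 2.03 on the log2 scale was the highest of the 35 lists in that comparison.

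Further lists held a few calls each, where 0.826% of all genes were called below 0 and 0.291% above. TGF-beta and activin signalling had 3 genes below 0, INHBA and TGIF1 included, and LTBP1 above 0 among 27. MAPK feedback genes and EGFR ligands had DUSP5, PHLDA1, HBEGF and NRG1 below 0 among 28. Connexins, cadherins and junction proteins had GJA5, CGN and CDH1 below 0 among 23, and matrix proteases and serpins had 2 genes above 0 (PLAT and ADAMTS1) and 1 below 0 among 27. LTBP1, DUSP5, HBEGF and NRG1 each lost their call in at least 2 of the 12 fits that left out 1 library. In those fits the MAPK list had 4 calls below 0 only without JUN EtOH replicate 3. It had 1 without vector EtOH replicate 3 or JUN EtOH replicate 1, so most of these calls were unsteady. Epithelial lineage transcription factors had EHF and HES1 above 0 among 19.

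Growth-related lists were induced in both backgrounds without an interaction call. The DNA replication list had 17 of 30 genes called higher in vector and 19 in JUN cells (15.6% and 11.2% of all genes tested). Its median inductions were 0.39 and 0.38. Mitotic genes had 11 and 15 of 30 called higher (medians 0.21 and 0.40). Ribosome biogenesis and tRNA genes had 19 of 28 called higher in each background (medians 0.46 and 0.52). JUN without induction was called lower for 22 of these 28 (18.9% of all genes). No gene of these 3 lists had an interaction call by edgeR, 1, 2 and 0 genes had an unadjusted p under 0.05, and DESeq2 called none.

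Interferon response genes were called lower or not at all on induction. In vector cells 16 of 33 were called lower (14.4% of all genes) and in JUN cells 11 (10.3%), with medians of -0.53 and -0.36, and neither edgeR nor DESeq2 called an interaction (0 genes with an unadjusted p under 0.05). Glycolysis, cholesterol synthesis and ion channel lists had no interaction call by edgeR or DESeq2 either (1, 2 and 2 genes with an unadjusted p under 0.05, of 18, 27 and 18). The integrin list had none by edgeR, 4 of 31 at an unadjusted p under 0.05 and 2 by DESeq2. The list of Hippo kinases and feedback genes also had none of 26, but 9 had an unadjusted p under 0.05, DESeq2 called 2, and edgeR called 5 below 0 without vector Dox replicate 1.

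**Figure D4:**
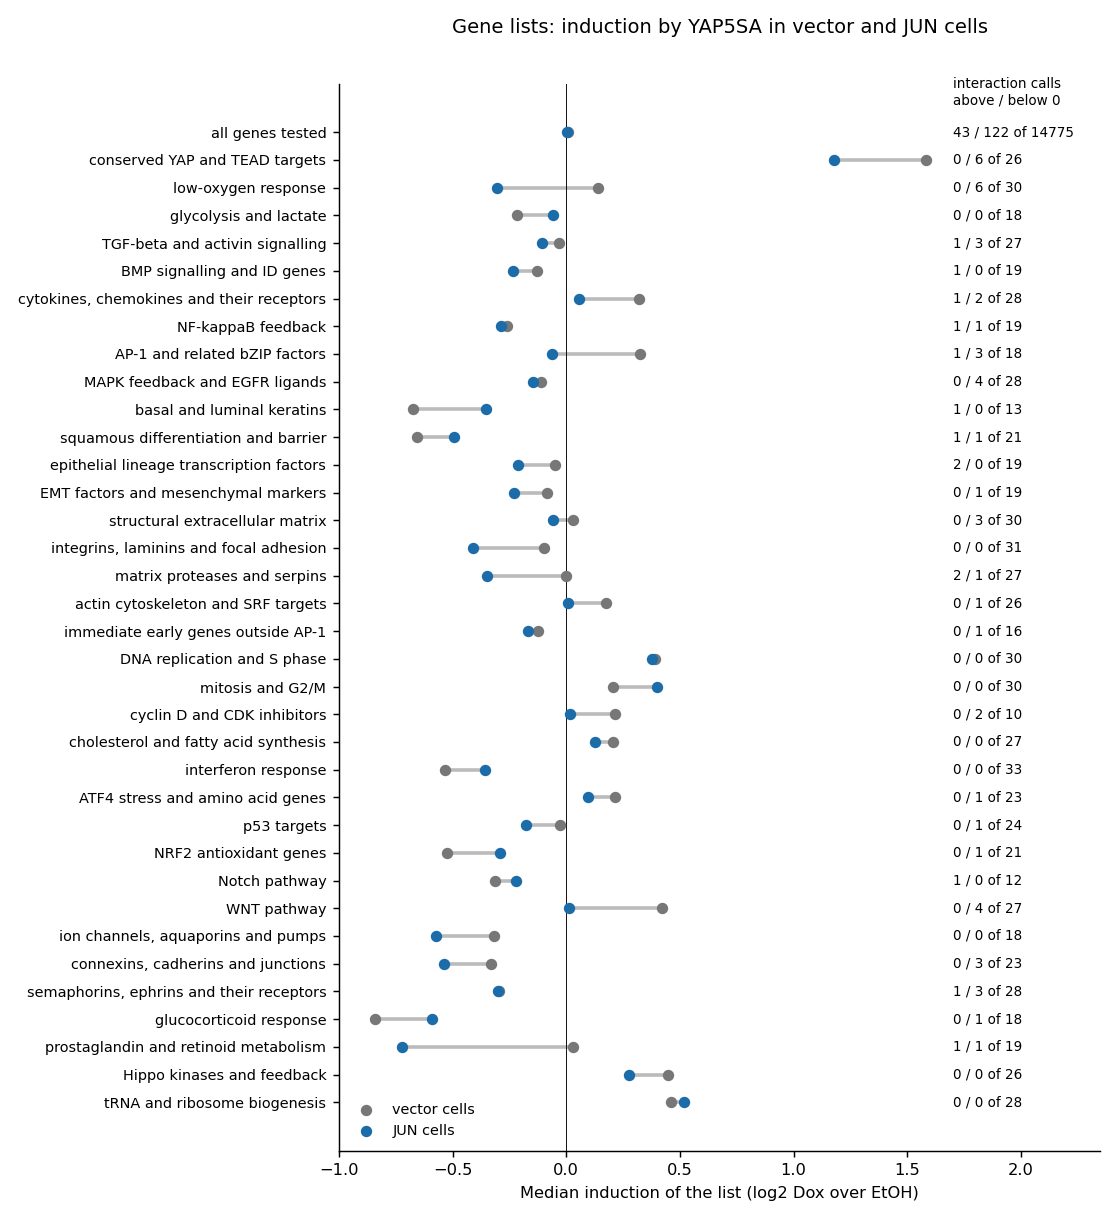
Median log2 induction (x axis) of each gene list in vector cells (grey) and JUN cells (blue), with all genes tested in the first line. Numbers at the right give interaction calls above and below 0 and the number of genes tested. Conserved YAP and TEAD targets have the highest medians (1.58 and 1.18), and DNA replication, mitosis and ribosome biogenesis have no interaction call.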

How the data were processed

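RNA-seq of MCF10A cells was analysed from 12 libraries, 3 in each of 4 groups given by the sample titles. The values are counts without normalization, which the authors deposited for 23459 Entrez gene IDs. According to the methods, single-end reads of poly(A) RNA were trimmed with Cutadapt, aligned to hg19 with Bowtie2 and counted with countOverlaps, and DESeq2 was used for differential expression. The submitters' processing notes name cutadapt 4.2 and Bowtie2 2.3.5.1. Bowtie2 does not split reads over introns, so junction reads are largely lost in all libraries alike. The annotation and any use of strand are not given in the sources used here, so overlapping genes may share reads.

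Symbols came from a RefSeq gene table for 99.4% of the IDs, and positions from GENCODE v44lift37 on GRCh37. Total counts were 18594867 to 28993487 per library, where the floor of 3 counts corresponded to 0.107 to 0.150 CPM. Such floors cover counting error only. No fold change is printed from a group in which a gene was at the floor. Such genes, 2 of the called ones, stayed in the fit, the classes and the medians of classes and lists. Genes were filtered with filterByExpr (minimum count 10, minimum total 15), scaled by TMM and fitted with edgeR 4.0.16 under R 4.3.3 in 1 quasi-likelihood model of the 4 group means (biological coefficient of variation 12.5%). The interaction was (JUN Dox - JUN EtOH) - (vector Dox - vector EtOH) on the log2 scale, and p-values were adjusted by Benjamini-Hochberg over all 14775 genes. Intervals (95%) use the SE and the median total degrees of freedom (residual plus prior) of 14.8. On simulated counts the fit recovered 84 of 100 interactions of 1 log2 unit and 100 of 100 of 2 units, with 11 false calls among 14677 genes. The changed genes had a mean above 100 counts, and all genes were drawn with the same coefficient of variation of 12.5%. Recovery at lower counts, or with spreads that differ between genes, was not simulated.

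The comparison, the 35 gene lists, of which 2 entries could not be matched and are not analysed here, and the rules were chosen with earlier results of these data known. Named genes were JUN, YAP1, the conserved YAP and TEAD targets, in each class and direction the 4 called genes with the largest interaction and a group mean of at least 5 CPM, and in each list the 2 called genes with the largest interaction. Other genes named as called members of a list (PFKFB3, WNT7B, FZD2, FOSL2, MAFK, LIF, LTBP1, DUSP5, HBEGF, EPHA2, RNF144B and DAAM1 among them) or as uncalled examples (VEGFA, CA9 and SLC2A1) were picked after their values were seen. Some genes that the rule covers are not reported here. Alternatives were DESeq2 1.42.0, RLE and upper-quartile factors, 2 other filters, a replicate block, a GC term, an adjusted p under 0.1, classes by the ratio of inductions, the CPM scale and each library left out.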

Additional observations from a re-analysis of the deposited data

Results flagged for a closer look

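The response to YAP5SA differed between JUN and vector cells for 165 genes by the edgeR interaction test. For 10 of them the called inductions had opposite signs. NDRG1 (-2.70), MAP2 (-2.54), WNT5A (-2.09), CCDC71L (-1.58), RNF144B (-1.44), TGIF1 (-1.13), ICAM1 (-0.99) and DAAM1 (-0.92) rose in vector cells and fell in JUN cells, with the interaction on the log2 scale in parentheses. NRP1 (1.25) and PLAT (1.07) fell in vector cells and rose in JUN cells.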

How the results depend on the processing

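All 165 called genes kept the sign of their interaction in every refit, and 76 were called in all 12 fits that left out 1 library and in all 7 refits with another scaling, filter, term or tool. With DESeq2 the calls numbered 358 (116 above and 242 below 0, including all 165), with 134 blunted, 131 lost, 16 reversed, 17 enhanced and 59 gained responses. A term for the GC deviation of each library, whose correlation with GC ranged from -0.35 to 0.36, gave 295 calls (92 above and 203 below 0) with 119 blunted, 103 lost, 21 reversed and 13 enhanced responses. At an adjusted p under 0.1 there were 256 calls, 86 above 0, with 79 lost, 22 reversed and 11 enhanced responses. Classing by the ratio of inductions gave 36 reversed and 17 enhanced responses. Leaving out 1 library gave 97 to 242 calls, 21 to 76 above and 71 to 184 below 0, 45 to 101 blunted, 29 to 81 lost, 5 to 20 reversed, 1 to 9 enhanced and 12 to 31 gained responses. The cause of these shifts was not tested. The other scalings and filters kept each count within 1.5 times.

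On the linear CPM scale the double difference had the opposite sign for genes that included NLRP3 (2.76 CPM, SE 0.670), ATOH8 (-6.21, SE 0.726), EHF (-0.521, SE 2.97), RHOV (2.03, SE 0.748), IGFBP3 (2.68, SE 21.9), CCDC80 (78.6, SE 32.03) and F3 (244, SE 173), where those of EHF, IGFBP3 and F3 lay within 2 SE of 0.

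The main fit held no replicate block, since the study names none, and whether same-numbered libraries were handled together is not stated. Deviations of same-numbered libraries from their group means correlated above 0.1 in 7 of 18 pairs (median 0.088), against 5 of 36 pairs with different numbers (median -0.048), and 7 of 12 libraries correlated best with their own number. With the replicate number as a block there were 197 calls, including 159 of the main calls, with 16 reversed and 10 enhanced responses. Each group held 3 libraries, which limited the test to larger or steadier differences.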
